A study of Mus musculus with 3 samples.

Results

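The potassium channel genes are those whose symbol begins with Kcn followed by a letter and a number, in 16 subfamilies from Kcna to Kcnv, with Kcnq1ot1 left out. They were found through the RefSeq accession of each probe or, where none matched, through the gene name in the authors' deposited table. This gave 120 of the 55681 non-control probes and 82 of the 35591 genes or systematic names on the array. Of the 82, 81 encode channel subunits and 1, Kcnd3os, is an antisense transcript. A filter on dim probes left 72 of them among 23305 tested, and the 10 left out (Kcna10, Kcne1, Kcng3, Kcng4, Kcnj1, Kcnj15, Kcnk7, Kcnk18, Kcnn1 and Kcnv2) were not well above background in either channel on any array.

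RNA came from the dorsal cortex of mouse pups killed at postnatal day 4 without treatment. Each of 3 Agilent arrays carried RNA of 1 wild-type pup in Cy3 and 1 Brpf1-deficient pup in Cy5, per the labels. Brpf1 encodes a scaffold protein of histone acetyltransferase complexes. The strain, the Brpf1 allele, the cells in which it was deleted and the litters of the pups are not given in these sources. The p-values concern these 3 pairs only. They rest on the spread between the pairs, which limma shrinks for each gene toward a spread pooled over all genes. The labels give every array the same dye orientation, so the effects of dye and genotype on a gene cannot be told apart.

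Potassium channels let potassium leave or enter the cell and so set the resting potential, shape the action potential and time the next one. Voltage-gated pores open on depolarization, inward rectifiers pass current best near the resting potential, and tandem-pore channels carry a background leak. In cortical neurons the voltage-gated and leak families are built up during postnatal maturation, while an inward rectifier of astrocytes takes up the potassium that neurons release.

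Brpf1 was brighter in Cy5, the channel labelled Brpf1-deficient, at log2 ratios (Cy5 over Cy3) of 0.63, 0.73 and 0.96 on arrays 1, 2 and 3. The mean was 0.77 ± 0.17 (SD, n = 3 arrays), with an adjusted p of 0.00443 in limma. Its log fold change in the authors' deposited table is -0.80. All 52 tested channel genes whose reported probe is listed there have the opposite sign to the one found here. In the authors' limma fit the adjusted p of Brpf1 was 0.240. That of the 13 channel genes that pass a threshold of 0.05 below was 0.240 to 0.276, so none passes it there. The direction of the authors' table is not given in these sources, and a reversed contrast would turn all of its signs together. Directions are therefore given by channel as labelled, and which genotype each belongs to is not settled. Of the 59305 non-control spots per array, 59.9% to 61.0% were well above background in Cy3 and 57.9% to 58.2% in Cy5, and no spot was saturated. Of 12 dorsal cortex markers, 11 were well above background in both channels of all 3 arrays. The exception, Emx1, gave 0.65, -2.72 and -2.65, so array 1 stood apart from arrays 2 and 3 at this marker. The numbers of channel genes past the threshold are therefore also given without array 1. Most other counts are of all arrays alone.

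Channel genes were brighter in both directions, and by small amounts. In limma, 7 of the 72 tested were brighter in Cy5 at an adjusted p under 0.05 (called, in what follows), where 7.96% of all genes were, and 6 were brighter in Cy3, where 9.19% were. The 13 together are 18.1% of the tested channel genes, near the 17.1% over all genes. Brighter in Cy5 were Kcna1, Kcnt1, Kcnj4, Kcnj14, Kcnj12, Kcnj5 and Kcns1. Among those brighter in Cy3 were Kcnj10, Kcns3, Kcnj2, Kcnd2 and Kcnd3. The log2 ratios of these 13 had sizes from 0.29 to 0.69, with a median of 0.34 against 0.38 over all called genes, and none reached 2-fold. Without array 1 the counts were 8 in Cy5 and 4 in Cy3, without array 2 also 8 and 4, and without array 3 they were 3 and 1. Over all 23305 genes they were 1854 and 2141 with all arrays, and 1400 and 1596 without array 1. They were 1625 and 2191 without array 2, and 764 and 1112 without array 3, so calls over all genes fell there too.

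Over all 72, the median log2 ratio was 0.06, against -0.01 over all genes tested, and the median size was 0.17 against 0.14. The ratio was above 0 for 44 genes and below 0 for 28, and 44 had the same sign on all 3 arrays. The channels of all 13 called genes did not overlap, meaning that the 3 values of one channel all lay above the 3 of the other. Such separation was seen in 21 of the 72, and for 36.2% of all genes. An unadjusted limma p under 0.05 was reached by 32 of the 72 (44.4%) and by 36.9% of all genes, the share to set beside such counts below. Between pairs of arrays, the ratios of the 72 genes correlated at Pearson r = 0.317 (arrays 1 and 2), 0.655 (1 and 3) and 0.638 (2 and 3), as a description, since genes of an array share its hybridisation. Over all genes r was 0.566, 0.703 and 0.588.

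**Figure D1:**
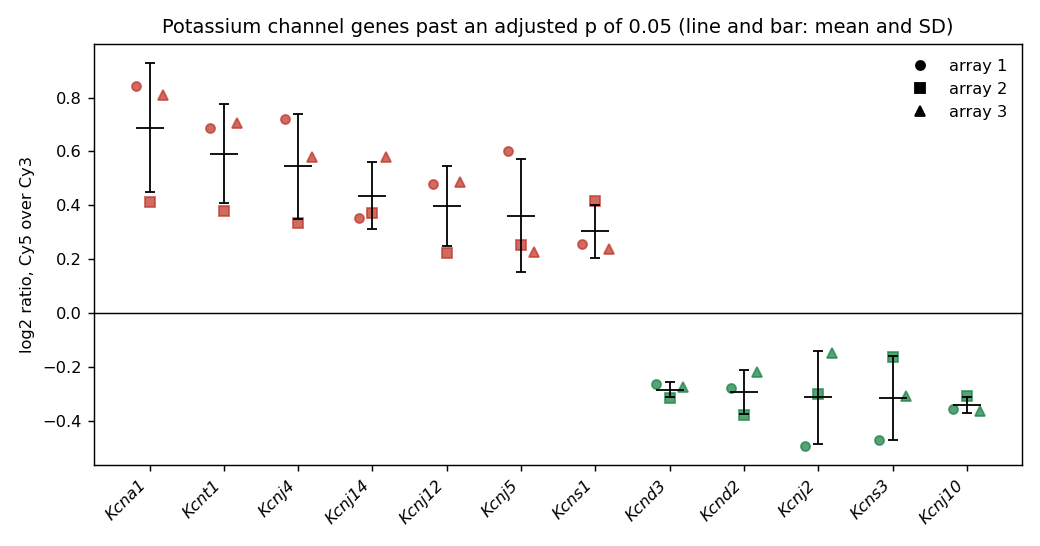
Log2 ratio of Cy5 over Cy3 on each of the 3 arrays (symbols) for 12 of the called channel genes, with the mean (line) and SD (bar). Kcna1, Kcnt1, Kcnj4 and Kcnj12 were lowest on array 2, and the bars of Kcnj10 and Kcnd3 are the shortest, at an SD of 0.03.

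Among the voltage-gated pores, the largest difference was that of Kcna1, a Shaker-type subunit of the low-threshold current of axons. Its normalised log2 intensity was 10.97, 11.28 and 10.97 in Cy3 and 11.81, 11.69 and 11.78 in Cy5. The channels did not overlap, and array 2 had the brightest Cy3 and the dimmest Cy5 value. The log2 ratio was 0.69 ± 0.24 (SD, n = 3 arrays), or 1.61-fold (limma adjusted p = 0.00974). It passed under all 13 alternatives tried, some of which could not change its ratio. The other 6 tested Kcna genes did not pass. Kcna6 was at 0.17 ± 0.11, Kcna4 at 0.11 ± 0.035, Kcna2 at 0.11 ± 0.045, Kcna3 at 0.06 ± 0.034, Kcna7 at -0.08 ± 0.01 and Kcna5 at -0.16 ± 0.21. Other probes disagreed for Kcna5, at 0.11, and for Kcna7, at 0.12. Where every probe was fitted, a second Kcna2 probe at 0.34 and a second Kcna6 probe at 0.26 passed in Cy5 (limma adjusted p = 0.0276 and 0.0452). Kcna5 and Kcna6, on either side of Kcna1 in the RefSeq gene order, therefore stood well below it in ratio, a difference that was not tested.

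Kcnd2 and Kcnd3, the pores of the A-type transient current of dendrites, were both brighter in Cy3. Their promoters are shown because these genes of 1 subfamily were both called in the same direction. The other tested genes of that subfamily were not called. Each window of 300 bases spans the start of the gene in RefSeq (GRCm38.p6), most of it upstream, and is printed on the strand of the gene, and capitals mark CG pairs. Kcnd2 lies on the plus strand at chr6:21215096-21215395 and Kcnd3 on the plus strand at chr3:105451640-105451939.
Kcnd2: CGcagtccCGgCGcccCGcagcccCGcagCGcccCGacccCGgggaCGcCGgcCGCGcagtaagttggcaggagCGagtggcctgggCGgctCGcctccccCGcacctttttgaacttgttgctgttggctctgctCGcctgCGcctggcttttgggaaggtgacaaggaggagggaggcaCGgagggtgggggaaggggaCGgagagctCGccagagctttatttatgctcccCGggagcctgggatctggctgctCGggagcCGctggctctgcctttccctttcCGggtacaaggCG
Kcnd3: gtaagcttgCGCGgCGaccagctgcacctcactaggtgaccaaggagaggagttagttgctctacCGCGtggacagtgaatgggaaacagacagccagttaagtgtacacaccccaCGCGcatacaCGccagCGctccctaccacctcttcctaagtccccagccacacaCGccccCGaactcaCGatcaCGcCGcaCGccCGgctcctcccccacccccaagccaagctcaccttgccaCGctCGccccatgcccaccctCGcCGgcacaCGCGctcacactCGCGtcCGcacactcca
The Kcnd2 window holds 26 CG pairs and that of Kcnd3 25, where the median over 32851 windows of 27025 genes is 7.

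For Kcnd2, Cy3 read 13.79, 13.94 and 13.77 and Cy5 13.51, 13.56 and 13.54 on the log2 scale. All 3 Cy5 values lay below all 3 Cy3 values, with a ratio of -0.29 ± 0.08 (1.23-fold, limma adjusted p = 0.0351). Kcnd3 gave 13.71, 13.61 and 13.60 in Cy3 against 13.45, 13.30 and 13.32 in Cy5, again without overlap. Its ratio was -0.285 ± 0.028 (1.22-fold, adjusted p = 0.0331), and its arrays differed little from each other. Neither gene passed when array 2 or array 3 was left out: Kcnd2 was then at -0.25 (adjusted p = 0.154) or -0.33 (0.0924), and Kcnd3 at -0.27 (0.121) or -0.29 (0.126). With median centring in place of loess, which moves the median of all genes from -0.01 to 0.09, Kcnd2 was at -0.11 and Kcnd3 at -0.115, with adjusted p of 0.357 and 0.295. Kcnd1, the third pore of this subfamily, was at 0.24 ± 0.07 and did not pass (adjusted p = 0.0551). The antisense transcript Kcnd3os was at 0.12 ± 0.08.

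Kcnb2, a delayed rectifier of somata and proximal dendrites, was at -0.54, -0.09 and -0.135, a mean of -0.25 ± 0.25, and did not pass in limma (adjusted p = 0.117). Its array 1 stood below the others.

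The Kcns, Kcnf, Kcng and Kcnv genes encode silent subunits, which form no channel alone and modify other voltage-gated pores. Kcns1 gave Cy3 values of 10.56, 10.44 and 10.54 and Cy5 values of 10.81, 10.86 and 10.78, with Cy5 above Cy3 throughout. Its ratio was 0.30 ± 0.10 (1.23-fold, limma adjusted p = 0.0346). Kcns3 ran the other way, at 9.73, 9.60 and 9.75 in Cy3 and 9.26, 9.44 and 9.44 in Cy5. Its ratio of -0.32 ± 0.16 (1.25-fold, adjusted p = 0.0413) was smallest in size on array 2. The adjusted p of Kcns1 was 0.158 without array 2 and 0.0918 without array 3, and that of Kcns3 was 0.0756 without array 1 and 0.121 without array 3. Kcns2 was at -0.03 ± 0.06. Of the other silent subunits none passed: Kcng1 was at 0.18 ± 0.07, Kcnf1 at 0.11 ± 0.11, Kcng2 at 0.0012 ± 0.308 and Kcnv1 at -0.10 ± 0.13. In the fit over probes, however, another Kcng2 probe was at 0.375 ± 0.109 (adjusted p = 0.0223) and another Kcnf1 probe at 0.28 ± 0.12 (0.0460), both called in Cy5.

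By its reported probe, no gene passed in the Kcnc, Kcnq or Kcnh subfamilies, which hold 4, 5 and 8 of the tested genes. At an unadjusted p under 0.05 in limma, 1, 3 and 6 of them did, where 36.9% of all genes did. The Kcnc pores give fast-spiking cells their rapid repolarization. Kcnc4 was at 0.31 ± 0.21, while Kcnc2 was at -0.10 ± 0.06 and Kcnc1 at -0.0078 ± 0.056. Another Kcnc1 probe was at -0.515, -0.36 and -0.23, and was called in Cy3 in the limma fit over probes (adjusted p = 0.0270). Kcnq3 and Kcnq5 encode subunits of the M-current channel, which restrains repetitive firing. Kcnq3 was at 0.30, 0.21 and 0.20, a mean of 0.24 ± 0.05, with the smallest adjusted p above the threshold (0.0530). Kcnq5 was at -0.08 ± 0.18 and Kcnq1 at 0.09 ± 0.14, and other probes of these were at 0.04 and 0.03.

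The 8 Kcnh genes, of the slowly gating ether-a-go-go family, had a median ratio of 0.19, with 5 above 0 and 3 below. Kcnh1 was at 0.18, 0.22 and 0.47, so that array 3 was the highest, with a mean of 0.29 ± 0.16 (limma adjusted p = 0.0536, and 0.0496 without array 1). Kcnh3 was at 0.17 ± 0.04 and Kcnh8 at 0.22 ± 0.04, both alike on the 3 arrays. Kcnh7 had the lowest mean ratio of all 72 genes, at -0.38 ± 0.36, but its arrays read -0.78, -0.29 and -0.08 and its adjusted p was 0.0781. It passed without array 2 (-0.43, adjusted p = 0.0256) and without array 3 (-0.54, 0.0358). Another Kcnh7 probe was at 0.13. Kcnh5 was at -0.14 on array 1 and at 0.51 and 0.54 on the others, and passed without array 1 at 0.53 (adjusted p = 0.0113).

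**Figure D2:**
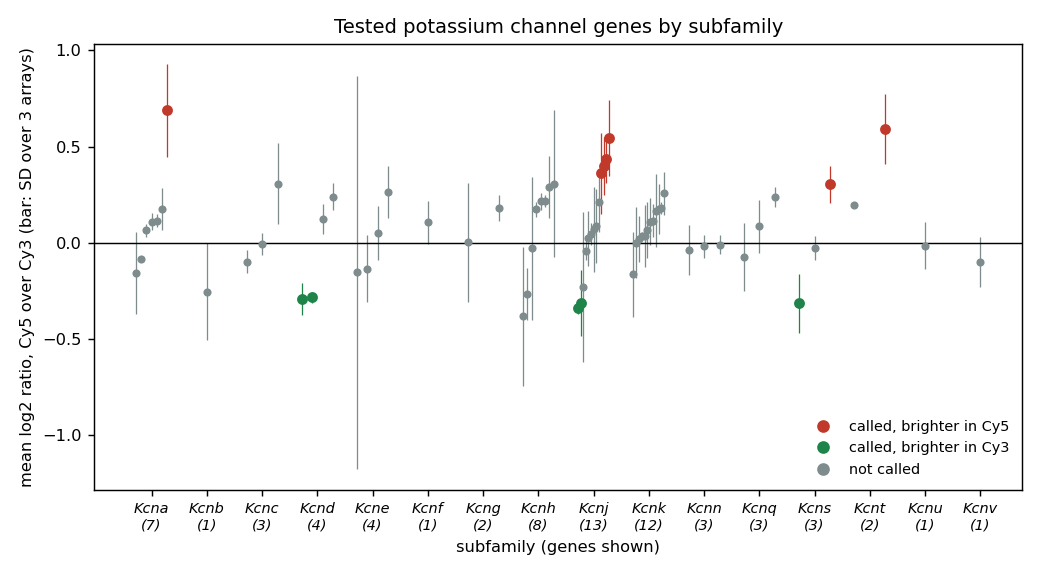
Mean log2 ratio of Cy5 over Cy3 (points) and SD over 3 arrays (bars) of 68 of the tested channel genes by subfamily, with the number shown in brackets. The called genes shown lie in Kcna, Kcnd, Kcnj, Kcns and Kcnt, with 6 in Kcnj.

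The inward rectifiers held 6 of the 13 called genes, 4 in Cy5 and 2 in Cy3 of 13 tested (46.2%). The share was 18.1% of all tested channel genes and 17.1% of all genes. That difference between shares was not tested. The promoters of Kcnj4 and Kcnj12 are shown because these genes of the same strong-rectifier group, both brighter in Cy5, differ in CG content. With capitals for CG pairs and the same window as above (RefSeq, GRCm38.p6), Kcnj4 lies on the minus strand at chr15:79505192-79505491 and Kcnj12 on the plus strand at chr11:61065554-61065853.
Kcnj4: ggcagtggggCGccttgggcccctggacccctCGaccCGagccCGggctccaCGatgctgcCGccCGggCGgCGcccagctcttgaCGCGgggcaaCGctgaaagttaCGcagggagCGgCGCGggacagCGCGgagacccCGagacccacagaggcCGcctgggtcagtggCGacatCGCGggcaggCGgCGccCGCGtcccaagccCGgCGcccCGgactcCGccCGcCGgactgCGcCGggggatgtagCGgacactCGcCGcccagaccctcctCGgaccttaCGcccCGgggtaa
Kcnj12: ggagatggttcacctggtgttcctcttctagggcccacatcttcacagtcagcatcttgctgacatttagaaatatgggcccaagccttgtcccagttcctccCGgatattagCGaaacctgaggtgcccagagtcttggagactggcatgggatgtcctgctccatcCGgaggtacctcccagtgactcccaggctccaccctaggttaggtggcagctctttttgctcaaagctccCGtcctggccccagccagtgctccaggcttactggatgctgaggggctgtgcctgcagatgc
The Kcnj4 window holds 41 CG pairs, the most among the windows of called channel genes, and that of Kcnj12 holds 4, the fewest.

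Kcnj2, Kcnj4, Kcnj12 and Kcnj14 encode the strongly rectifying channels that hold the resting potential of neurons and muscle. Each of the 4 was called, Kcnj2 in Cy3 and the others in Cy5, where 17.1% of all genes were. The grouping was made after their values were seen, so the count is no result about the group. Kcnj4, known from forebrain neurons, read 11.06, 11.36 and 10.89 in Cy3 and 11.78, 11.69 and 11.47 in Cy5. The channels did not overlap, and the difference was smallest on array 2. Its ratio was 0.54 ± 0.20 (1.46-fold, limma adjusted p = 0.0131), and it passed under all 13 alternatives, some of which could not change its ratio. Kcnj12 gave 9.47, 9.70 and 9.51 in Cy3 and 9.95, 9.93 and 9.998 in Cy5. These were also apart, with array 2 again the smallest difference, and the ratio was 0.40 ± 0.15 (1.32-fold, adjusted p = 0.0229, and 0.0879 without array 3).

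Kcnj14 was a dim gene, with Cy3 at 7.41, 7.47 and 7.24 and Cy5 at 7.76, 7.84 and 7.81. It was well above background in both channels on all 3 arrays, and the channels did not overlap. The ratio was 0.435 ± 0.125 (1.35-fold, limma adjusted p = 0.0158). It was 0.36 (adjusted p = 0.0698) without array 3, and 1.04 with the processed signals of the scanner software, more than with loess. Another Kcnj14 probe, not well above background on any array and so not tested, was at 0.02. Kcnj2 was called in the other direction, at 8.20, 8.15 and 8.09 in Cy3 and 7.70, 7.85 and 7.94 in Cy5. Cy3 lay above Cy5 throughout, but the ratio was -0.49 on array 1 and -0.15 on array 3. The ratio was -0.31 ± 0.17 (1.24-fold, adjusted p = 0.0461), the call nearest the threshold, and leaving out array 1, 2 or 3 gave -0.22, -0.32 or -0.40 with adjusted p of 0.0860, 0.0704 and 0.0582. With the processed signals Kcnj2 was at -0.54.

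Kcnj3, Kcnj5, Kcnj6 and Kcnj9 encode channels opened by G proteins, which slow firing when inhibitory receptors are active. Kcnj5 read 8.09, 8.36 and 8.26 in Cy3 and 8.69, 8.61 and 8.49 in Cy5, without overlap. Array 1 gave the largest ratio, 0.60, and arrays 2 and 3 gave 0.25 and 0.23. The mean was 0.36 ± 0.21 (1.28-fold, limma adjusted p = 0.0404), and it was 0.24 without array 1 (adjusted p = 0.0582) and 0.43 without array 3 (0.0573). Kcnj3, Kcnj6 and Kcnj9 were at 0.09 ± 0.19, 0.02 ± 0.14 and 0.07 ± 0.22 and did not pass. Another Kcnj3 probe, at 0.32 ± 0.13, was called in Cy5 in the fit over probes (adjusted p = 0.0358). The pores of the channels closed by ATP, Kcnj8 and Kcnj11, were at 0.045 ± 0.055 and -0.04 ± 0.05, and another Kcnj11 probe was at 0.15.

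Kcnj10, the channel through which astrocytes take up potassium, was brighter in Cy3. It read 13.31, 13.32 and 13.26 in Cy3 and 12.96, 13.02 and 12.90 in Cy5. The channels were apart on every array and the arrays alike, with a ratio of -0.34 ± 0.03 (1.27-fold, limma adjusted p = 0.0208). It did not pass without array 3 (-0.33, adjusted p = 0.0894), with the processed signals (-0.28, 0.0756) or with median centring (-0.20, 0.111). Of 7 astrocyte markers, 2 were brighter in Cy3, the glutamate transporter gene Slc1a3 at -0.38 and the filament gene Gfap at -0.32. The other 5 were not called, at 0.05 (Slc1a2), -0.07 (Aqp4), -0.05 (Aldh1l1), -0.19 (Gja1) and 0.16 (S100b). Their summed level, the log2 of summed intensities over the list, was 16.03 to 16.14 in Cy3 and 15.83 to 15.88 in Cy5. The part of astrocyte RNA in the Kcnj10 value was not tested, and in tissue RNA fewer cells of a type and less RNA per cell cannot be told apart. Kcnj16, which encodes a partner subunit of Kcnj10 channels, was at 0.21 ± 0.16 and did not pass. Kcnj9, the neighbour of Kcnj10 in the RefSeq gene order, and Kcnj16, the neighbour of Kcnj2, thus had ratios above 0 beside called genes with ratios below 0.

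**Figure D3:**
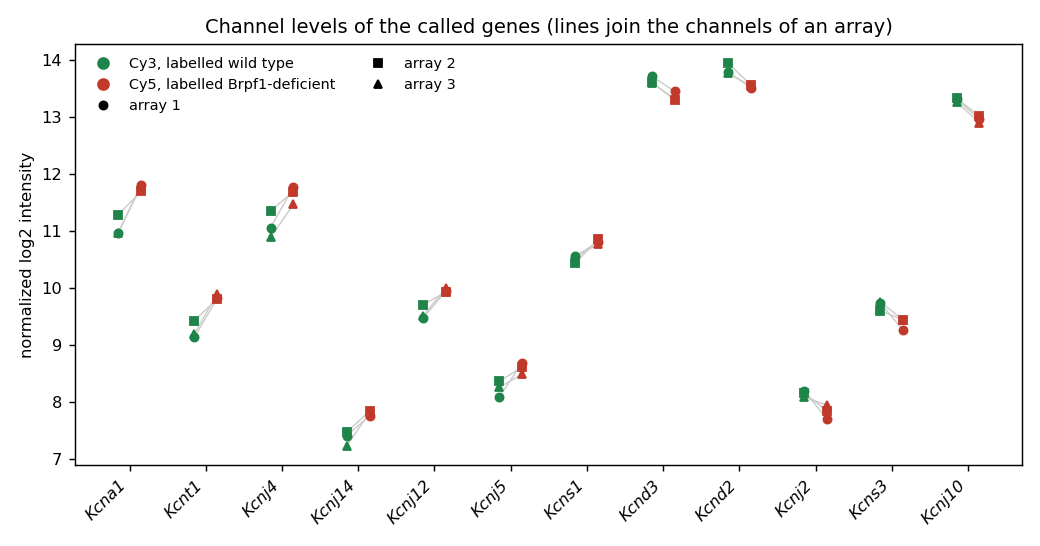
Normalised log2 intensity of 12 called channel genes in Cy3 (green, labelled wild type) and Cy5 (red, labelled Brpf1-deficient) on 3 arrays, with a line joining both channels of an array. The channels of each gene are separate, from Kcnj14 (7.24 to 7.84) to Kcnd2 (13.51 to 13.94); the heights of different probes are not comparable.

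Kcnt1 and Kcnt2 encode channels opened by intracellular sodium, which follow bursts of firing. Kcnt1 read 9.13, 9.43 and 9.20 in Cy3 and 9.82, 9.81 and 9.90 in Cy5. Cy5 was above Cy3 throughout, and array 2 had the highest Cy3 value and the smallest difference. The ratio was 0.59 ± 0.18 (1.51-fold, limma adjusted p = 0.0103), and it passed under all 13 alternatives, some of which could not change its ratio. Kcnt2 was at 0.18, 0.21 and 0.20, a mean of 0.19 ± 0.01 with an adjusted p of 0.0820, and another probe of it was at -0.09. The calcium-activated Kcnn genes, which carry the afterhyperpolarization, all lay near 0: Kcnn2 was at -0.02 ± 0.06, Kcnn3 at -0.01 ± 0.05 and Kcnn4 at -0.04 ± 0.13. On none of the arrays was Kcnn4 well above background in Cy5. Kcnu1, whose product is best known from sperm, was at -0.015 ± 0.12.

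None of the 12 tested Kcnk genes, the leak channels, passed. The ratio was above 0 for 10 of them, and 2 of the 12 had an unadjusted limma p under 0.05, against 36.9% of all genes. Their median was 0.09. Kcnk12 came nearest, at 0.27, 0.14 and 0.36, a mean of 0.26 ± 0.11 (limma adjusted p = 0.0546). Kcnk9 and Kcnk3, of the acid-sensitive channels, were at 0.18 ± 0.03 and 0.17 ± 0.19. The mechanically and lipid-gated Kcnk2, Kcnk4 and Kcnk10 were at -9.6e-05 ± 0.184, 0.18 ± 0.13 and 0.02 ± 0.12. Another Kcnk4 probe, at 0.39 ± 0.18, was called in Cy5 in the fit over probes (adjusted p = 0.0282). Kcnk1 was at 0.03 ± 0.16, and Kcnk5, the lowest, at -0.165 ± 0.22.

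The Kcne genes encode single-pass accessory subunits, and none of the 4 tested passed, where 1 had an unadjusted limma p under 0.05, against 36.9% of all genes. Kcne1l was at 0.37, 0.11 and 0.31, a mean of 0.26 ± 0.14 (limma adjusted p = 0.0582, and 0.0468 without array 2), with channels that did not overlap. Kcne4 was at -0.135 ± 0.174, and another probe of it was at 0.26 and called in Cy5 in the fit over probes (adjusted p = 0.0470). Kcne2, known from the choroid plexus, varied more between arrays than any other tested channel gene, at -1.23, 0.81 and -0.05 (SD 1.02). Without array 2 it was at -0.64 and passed in Cy3 (adjusted p = 0.00463), although the arrays left differed widely. That p-value draws on the spread limma pools over all genes. Kcnj13, an inward rectifier of the same epithelium, was at -0.68, 0.035 and -0.05, a mean of -0.23 ± 0.39. Another Kcnj13 probe was at -0.45, 0.13 and 0.16, a mean of -0.05 ± 0.34. The choroid plexus markers gave -2.60, 1.14 and 0.10 (Ttr), -0.52, 0.05 and 0.15 (Kl) and -0.999, -0.43 and -0.27 (Prlr), lowest on array 1 in each case. Of the 5 genes in the list of meninges and choroid plexus markers 1, Prlr, was called, and the summed level ranged from 15.55 to 16.49 in Cy3 and from 14.83 to 16.60 in Cy5. The part of choroid plexus RNA in the Kcne2 and Kcnj13 values was not tested.

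Kcna1, Kcnt1, Kcnj4 and Kcnj12 all had their lowest ratio on array 2, while among the other Cy5 calls Kcns1 was highest there, Kcnj14 lowest on array 1 and Kcnj5 lowest on array 3. Striatal markers had the same array lowest: their median ratio was 1.005, 0.24 and 0.62 on arrays 1, 2 and 3. Of 9 such markers 6 were brighter in Cy5, among them Penk at 1.08 and Ppp1r1b at 1.19, and none in Cy3. Their summed level was 15.10 to 16.05 in Cy3 and 16.29 to 16.43 in Cy5, so that Cy3 of array 2 lay closest to Cy5. Without array 2 the ratios of the 4 channel genes were 0.83, 0.70, 0.65 and 0.48. A low array 2 was not particular to striatal markers. It was also lowest in the medians of most other lists, such as microglia (0.29, 0.09 and 0.29) and erythroid cells (0.88, 0.68 and 1.70). It was not lowest for dorsal cortex, astrocytes, or meninges and choroid plexus. The part of striatal RNA in the values of the 4 channel genes was not tested.

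**Figure D4:**
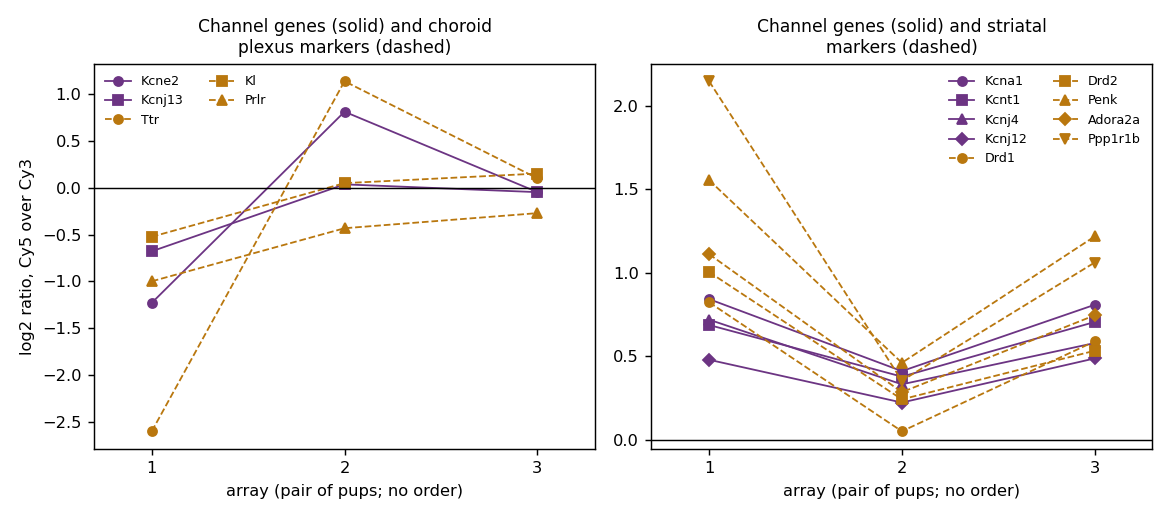
Log2 ratio of Cy5 over Cy3 on each array (1 pair of pups each, without order) of channel genes (solid) beside choroid plexus markers (left, dashed) and striatal markers (right, dashed). On the left array 1 is lowest, with Kcne2 at -1.23 and Ttr at -2.60, and on the right array 2 is lowest, with Kcna1 at 0.41 and Penk at 0.46.

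The genes for auxiliary and related proteins, such as beta subunits and hyperpolarization-activated channels, are no members, and 23 of 28 listed were tested. Of these 3 were brighter in Cy5 and 0 in Cy3 in limma, where 7.96% and 9.19% of all genes were. At an unadjusted p under 0.05 there were 4 and 2, or 26.1% of the 23, against 36.9% of all genes. Kcnab3, a beta subunit of Kcna channels, was at 0.34, 0.46 and 0.44, a mean of 0.41 ± 0.07 (adjusted p = 0.0141, and 0.0555 without array 3). Kcnip2, a calcium-binding subunit of Kcnd channels, was at 0.32, 0.26 and 0.33, a mean of 0.30 ± 0.04 (adjusted p = 0.0299). It did not pass without array 2 (0.0611) or array 3 (0.131). Hcn2, a hyperpolarization-activated cation channel of neurons, was at 0.70, 0.28 and 0.21, a mean of 0.40 ± 0.26 (adjusted p = 0.0430, and 0.0579 without array 1). The value of Hcn2 is that of 1 of its 2 kept probes. With the mean over the probes of a gene, 2 auxiliary genes passed in Cy5 and 2 in Cy3. The channels of Kcnip2 and Hcn2 overlapped, and those of Kcnab3 did not. The Kcnd partners Dpp6 and Dpp10 were at 0.11 ± 0.20 and -0.13 ± 0.17, and the sulfonylurea receptors Abcc8 and Abcc9, which complete the channels of Kcnj11 and Kcnj8, at 0.145 ± 0.201 and 0.20 ± 0.14.

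How many genes passed in each channel depended on the normalization. With the processed signals, Cy5 was brighter for 6 channel genes and Cy3 for 1, where 2.47% and 2.28% of all genes were, and 4 of the 7 and 1 of the 6 original calls were among them. With median centring, 18 were brighter in Cy5 and 0 in Cy3, where 19.2% and 3.86% of all genes were. All 7 Cy5 calls passed again there, and none of the 6 Cy3 calls did, although each kept its sign. At an unadjusted p under 0.05 in limma, median centring gave 25 in Cy5 and 5 in Cy3, where it gave 30.3% and 8.71% of all genes. Brighter in Cy5 were 46.4% of all calls after loess, 52.0% with the processed signals and 83.3% with median centring.

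**Figure D5:**
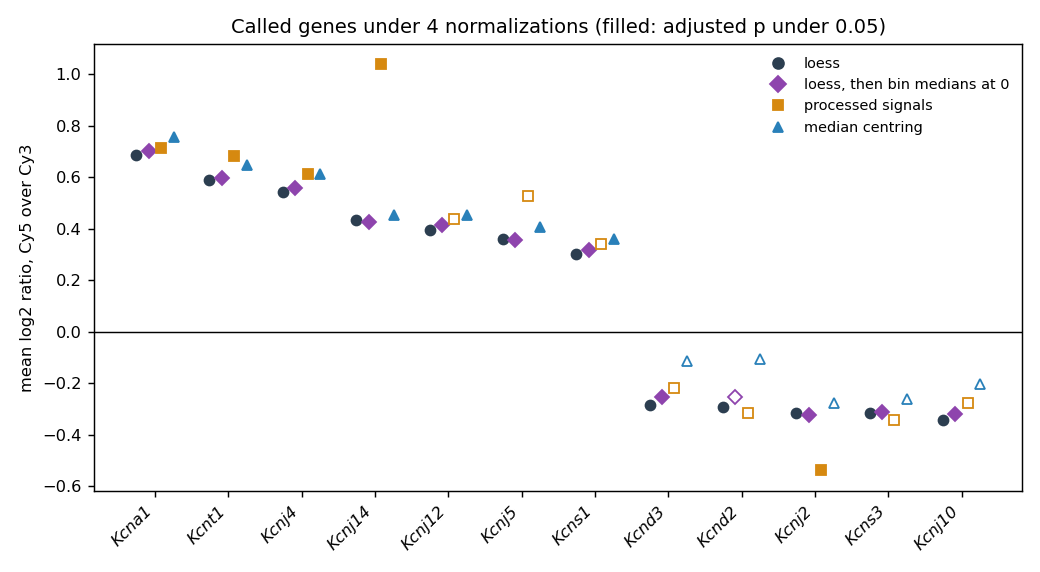
Mean log2 ratio of Cy5 over Cy3 of 12 called channel genes under 4 normalizations, filled where the limma adjusted p was under 0.05. Every gene keeps its side of 0, and Kcnj14 moves from 0.435 after loess to 1.04 with the processed signals.

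RefSeq promoter windows were found for 58 of the 82 genes, in 74 windows. Their median number of CG pairs was 10, against 7 over all 32851 windows. The 4 windows of genes brighter in Cy5 (Kcnj4, Kcnj5, Kcnj12, Kcns1) held 4 to 41, and the 6 windows of genes brighter in Cy3 (Kcnd2, Kcnd3, Kcnj2, Kcnj10 and Kcns3, with 2 windows) held 9 to 32. In the 55 windows of genes not called, the median was 9. Motifs were sought on both strands. The GC box, spelled GGGCGG, was present in 37 of the 74 channel gene windows and in 35.7% of all windows. The TATA box, spelled TATAAA, was present in 5.4% and 13.6%. The E-box, spelled CACGTG, was present in 6.8% and 7.2%.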

How the data were processed

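Total RNA of 3 pairs of pups, 350 ng each, was amplified once before dye coupling, per the labels' protocols. The authors deposited scanner files with the median intensity of each spot and its local background, without normalization, on 1 slide, per the file headers. The scanner software's processed intensity, which the authors also deposited, has its background subtracted and its dyes balanced, per the file headers, and served as an alternative. The authors also deposited a table of log2 fold changes with a p-value, an adjusted p-value and a score per spot. The submitters' processing notes name limma, while the background correction, normalization and direction of that table are not given in these sources. With 40000 spots and a largest p-value of 0.4585, it names probes partly by outcome.

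Here the medians were corrected with normexp (offset 50) in limma 3.58.1 under R 4.3.3, since no mean spot signal was given. Loess within arrays gave control spots weight 0, the 4 to 6 non-uniform spots per array were left out, and replicate spots of 1 probe were averaged. Channel levels, and so their overlap, were taken after a further quantile normalization of average intensities between arrays (Aquantile in limma). That step leaves the log2 ratios unchanged. Probes had to be well above background in either channel on 2 or more arrays, and a gene was represented by its kept probe of highest average intensity. The log2 ratio of Cy5 over Cy3 was tested against 0 in limma with an intercept only, two-sided, with Benjamini-Hochberg adjustment over 23305 genes and a threshold of 0.05. The number of arrays limits the precision. The fit was tested on simulated data.

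Probes were named through RefSeq accessions in the RefSeq table (GRCm38.p6) (27656 of 55681 probes, 109 of the 120 channel probes) or the authors' table (4082 and 11), and 23943 kept a systematic name. The members and lists were chosen with earlier results of these data known. The text was to name Brpf1, each called channel gene, the channel gene of highest average intensity in each subfamily without one, the 3 channel genes nearest above the threshold, genes with another kept probe of opposite sign or under 50% of the reported ratio, channel genes dim in a channel on all arrays with a bound of at least 1.5-fold (none; Kcnn4 alone was dim, in Cy5, with a bound of 1.03-fold in favour of Cy3), and each called auxiliary gene. Some genes that this rule names are not reported here. Genes described beside these were chosen by family, and probes called only in the fit over probes were added after their values were seen. Marker lists covered 10 tissues and cell types. Those not given in the report had these calls in Cy5 and Cy3: dorsal cortex 5 and 2 of 12, thalamus 1 and 2 of 6, interneurons 2 and 4 of 10, oligodendrocyte lineage 0 and 0 of 7, microglia 3 and 0 of 7, endothelium and pericytes 1 and 0 of 6, and erythroid cells 2 and 0 of 3. Alternatives changed the dim-probe filter, the signal, the normalization, the background correction, the choice of probe, the naming and the arrays used.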

Additional observations from a re-analysis of the deposited data

How the results depend on the processing

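Of the 13 calls, Kcna1, Kcnt1 and Kcnj4 passed under all 13 alternatives, and no sign turned for the 12 called genes named in the report. With RefSeq names alone, an alternative chosen after seeing the data, the counts were 8 in Cy5 and 5 in Cy3. All 13 passed without the dim-probe filter, with the stricter filter, with an offset of 16 and in the fit over probes. The filters cannot change their ratios, since all 13 were well above background in both channels on all arrays. The fit over probes keeps the reported probe. The offset of 16 does change ratios, with Kcnj14 at 0.535 in place of 0.435. The filters and the fit over probes act only through the spread and adjustment over all genes. For Kcna1, Kcnt1 and Kcnj4, each with 1 kept probe, so do the mean over probes and RefSeq names alone. Channel genes brighter in Cy5 numbered 7, and 18 with median centring, 15 in the fit over probes and 3 to 8 with an array left out. In Cy3 they numbered 6, and 1 with the processed signals, 0 with median centring and 1 to 4 with an array left out. Auxiliary genes numbered 3 in Cy5, with 1 for the processed signals and 1 to 2 with an array left out. In Cy3 they numbered 0, with 2 for the mean over probes, 2 for the fit over probes and 0 to 1 with an array left out. All genes numbered 1854 in Cy5, with 575 (processed signals), 4471 (median centring) and 764 to 1625 (an array left out), and 2141 in Cy3, with 531, 899 and 1112 to 2191. The ratios are taken within arrays, so the fit is already one of pairs, and no further block was fitted. Signal limits the 10 untested genes, of which Kcne1 and Kcng3 (Cy3) and Kcnv2 (Cy5) passed without the filter while not well above background.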

Other observations

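Genes that neighbour each other in the RefSeq gene order were set side by side. Kcna3 and Kcna2, in the order of a Shaker-type cluster, were at 0.06 and 0.11, and neither passed in limma. The leak channel genes Kcnk5 and Kcnk16 were at -0.165 and 0.11 and did not pass either. Between Kcnj5, called in Cy5, and its neighbour Kcnj1 no comparison was possible, since Kcnj1 was not well above background. Of the 59 tested channel genes that were not called, 37 had a ratio above 0 and 22 below. The 13 of them with an adjusted p from 0.05 to 0.1 had 11 above 0 and 2 below, Kcnh2 at -0.27 and Kcnh7 at -0.38, which were named after their values were seen. The same splits were not counted over all genes, so these counts are no result about the channel genes.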
